A study of Arabidopsis thaliana with 9 samples.

Results

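Clustered LFY summits were the summits of LEAFY (LFY) ChIP-seq peaks that lay within 3 kb of another summit on the same chromosome. LFY is a plant-specific DNA-binding protein that directs new meristems to form flowers. Of the 1177 summits on the 5 nuclear chromosomes, 408 were clustered, which is 34.7% of all summits tested by this rule (95% Wilson interval 32 to 37.4), and they formed 176 clusters. The interval treats summits as independent, although the summits of a cluster are clustered together. The remaining 769 summits had no neighbour within 3 kb and are called isolated. Members were chosen by the measured positions of the summits alone, so the shares of clustered and isolated summits are the outcome of the rule and are given as a description.

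The study followed LFY binding during the reprogramming of root explants. Callus was grown from roots of 35S:LFY-GR seedlings in the Ler accession (Landsberg erecta), harvested at 3 weeks and kept for 5 days on callus inducing medium (CIM). The samples formed 3 groups of 3, which were input chromatin, LFY ChIP after mock treatment and LFY ChIP after 1 h in 5 µM dexamethasone (dex). All groups carried the same transgene, the mock controls included, and no group lacked it. The 35S promoter drives LFY-GR constitutively in most cells, and dex moves the fusion protein into the nucleus, so the peaks describe the induced fusion and not LFY expressed from its own promoter. The values came from a single list in which 3 dex libraries were pooled and called against 3 pooled mock libraries. There is thus no replicate error for any value, how deeply each library was sequenced cannot be read from the list, and the intervals cover counting error only. The tissue was Ler and the sequence shown is that of the Columbia reference. The text describing the series gives a treatment of 24 h where the sample labels give 1 h, and no computation used either.

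LFY binds DNA as a monomer or as a dimer. Its site is palindromic with the core CCANTGG, and the N-terminal domain of LFY lets dimers associate with each other on DNA. Binding sites of 1 factor that lie close together can act on the same gene, and regulatory regions of plant developmental genes often hold several bound segments. Chaining summits by distance groups such segments by locus without using the sequence or the annotation, which leaves both free to be compared.

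The sequences that carry the exact core closest to a clustered summit are shown first, because they are the candidate contact points within the clusters. The 10 clustered summits with a core within 10 bp, a limit set after the distances had been seen, had the following sequences on the plus strand of the RefSeq TAIR10.1 assembly, with the core in capitals.
PP2-B14 upstream region, chr1:21063052-21063078: ccattttagaCCAATGGtcaaatatta
ERF15 upstream region, chr2:13309639-13309665: aaaatgaaaaCCATTGGtcaaaattgt
AT4G23740 to CRF2 interval, chr4:12370842-12370868: atataatagaCCAATGGttcctgattt
GUT2 to APT1 interval, chr1:9531537-9531563: gagttaatgtCCATTGGgccttgctaa
AP1 upstream region, chr1:25986505-25986531: attgtacggaCCACTGGtccttcccca
GRF5 upstream region, chr3:4607209-4607235: ccttctttatCCAATGGtctctcccct
HSFA6B to ELIP1 interval, chr3:8083818-8083844: taatcactgtCCACTGGtcctctctct
AT4G31875 upstream region, chr4:15412742-15412768: gtacggctgaCCAATGGttagtacgac
HB17 upstream region, chr2:190893-190919: ggtcaatattCCAATGGctaaccatgg
AT2G22426 to HB6 interval, chr2:9517893-9517919: ttgaaagagaCCATTGGtacgatcaca

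A single cluster had an exact core at more than 1 of its summits. Its cores lay at the end of PDE135, an annotated xanthine/uracil permease, and in front of AT2G26520, an uncharacterized gene, and are shown with the core of the cluster that held the most summits, at HB40.
PDE135 end, chr2:11277543-11277569: aaaattgagtCCAGTGGatacaaatga
AT2G26520 upstream region, chr2:11279254-11279280: gggtatctcaCCATTGGagatagcctt
HB40 upstream region, chr4:17316836-17316862: aatgtgatgtCCAATGGagaggacatt

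The 3 clustered summits of highest fold had no exact core within 150 bp. The 60 bases around them are printed to show what lay under them, with capitals for a match to the core that differs from it in 1 letter, where the window holds one.
AR781 upstream region, chr2:11284869-11284928: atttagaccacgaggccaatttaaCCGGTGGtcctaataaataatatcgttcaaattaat
PFD3 to WRKY48 interval, chr5:20085884-20085943: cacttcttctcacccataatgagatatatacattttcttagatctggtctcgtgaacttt
AT1G68360 to ARG1 interval, chr1:25626757-25626816: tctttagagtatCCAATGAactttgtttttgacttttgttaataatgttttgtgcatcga

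Most clusters were pairs. Of the 176 clusters, 137 had 2 summits (77.8%), 26 had 3, 10 had 4, 2 had 5 and 1 had 6. A cluster spanned a median of 1530.5 bp from its first to its last summit, with a range from 349 to 5253 bp. Pairs had a median span of 1192 bp, clusters of 3 a median of 2930 bp and clusters of 4 a median of 3370 bp. The 5 chromosomes did not hold clusters in the same proportion. On chromosome 2, 44.4% of the summits were clustered (99 of 223), and on chromosome 1 the share was 38.8%. It was 32.7% on chromosome 4, 29.3% on chromosome 5 and 26.3% on chromosome 3.

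Neighbouring summits within a cluster lay a median of 1210 bp apart, with quartiles of 827.5 and 1855 bp. Of the 232 neighbouring pairs, 13 were at most 500 bp apart and 72 were between 500 and 1000 bp apart. Counts then fell with distance, to 60 between 1000 and 1500 bp, 47 between 1500 and 2000 bp, 27 between 2000 and 2500 bp and 13 between 2500 and 3000 bp. Just inside the limit of the rule lay pairs at 2889, 2898 and 2977 bp, and just outside it lay pairs at 3009, 3011 and 3012 bp. In the peak list each peak had its own interval and a single summit. The intervals of neighbours were separated by a median of 628.5 bp and by at least 77 bp, and 0 of the 232 pairs touched. Peak numbers run in genome order and include peaks under the threshold on the q-value. In 219 of the pairs (94.4%) no such number fell between the neighbours, so these were adjacent peaks in the caller's own numbering.

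**Figure D1:**
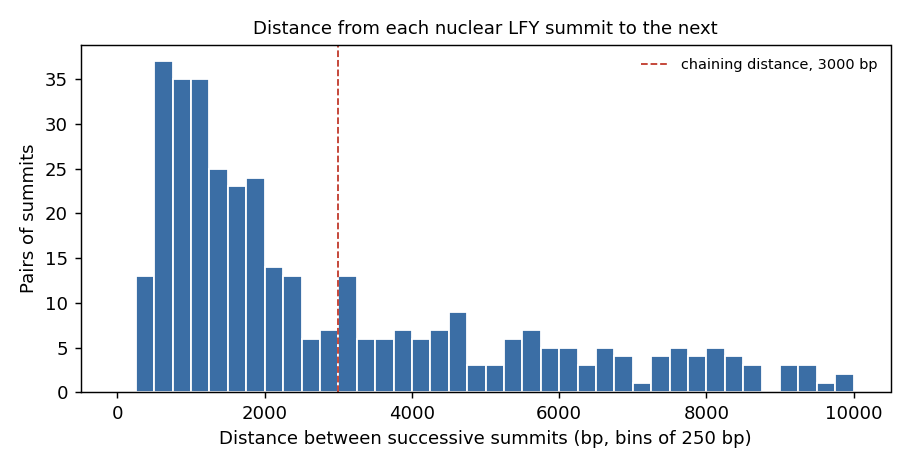
The histogram counts pairs of successive nuclear summits (y axis) by the distance between them in bp (x axis, bins of 250 bp, distances up to 10 kb), with the chaining distance of 3000 bp as a dashed line. Between 0 and 1000 bp lay 85 pairs, between 1000 and 2000 bp 107, between 2000 and 3000 bp 40, and between 3000 and 4000 bp 32.

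Clusters mostly sat between genes. In 113 of the 176 clusters (64.2%), the stretch from first to last summit overlapped no protein-coding gene, in 54 it overlapped 1 and in 9 it overlapped 2 or more. No whole gene lay inside the stretch in 159 clusters. Of the 232 neighbouring pairs, 161 (69.4%, 63.19 to 74.97) shared 1 intergenic interval. The genes on both sides of that interval pointed the same way in 88 pairs, pointed away from each other in 61 and pointed towards each other in 12. In 48 pairs, 1 summit lay in a gene and the other beside it. A further 15 pairs had at least 1 whole gene between them, 7 lay in the same gene body and 1 lay in neighbouring gene bodies.

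A gene was assigned a summit that lay within it or up to 3 kb upstream of its start. By this measure 237 protein-coding genes had a clustered summit, of which 128 had 2 summits, 5 had 3 and 4 had 4. In 92 clusters (52.3%) a gene was shared by every summit, and in 21 clusters no gene was assigned at all. Isolated summits were assigned to 951 genes, and 3 genes had both kinds. All gene positions are from the RefSeq annotation, and an assignment by distance is not evidence of regulation.

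To ask whether clustered summits differ in position, the first summit by coordinate stood for each cluster and was compared with the isolated summits, since summits of 1 cluster share a locus. Clustered summits lay in longer stretches of intergenic DNA and less often directly in front of a gene. Of the first summits, 66 of 176 (37.5%, 30.7 to 44.8) lay in an intergenic interval of at least 5 kb, against 164 of 769 isolated summits (21.3%, 18.6 to 24.4). The difference was 16.2 percentage points (95% interval 8.72 to 24.0, Fisher's exact test, two-sided, p = 1.55e-05, adjusted p = 9.30e-05 over the 6 tests made). Across the genome, 24.8% of positions taken every 1000 bp lay in such an interval. With intervals of at least 10 kb the difference was 3.50 percentage points (Fisher's exact test, p = 0.0863), and with a chaining distance of 1000 bp it was 5.42 (p = 0.300), so neither passed the threshold. A long interval also has more room for neighbouring summits, and the part of interval length in the grouping was not tested.

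In the 1 kb upstream of a protein-coding gene lay 43 of the 176 first summits (24.4%, 18.7 to 31.3), against 275 of the 769 isolated ones (35.8%, 32.5 to 39.2), a difference of -11.3 percentage points (-18.0 to -3.72, Fisher's exact test, two-sided, p = 0.00455, adjusted p = 0.0137). This call depended on which summit stood for the cluster. With the last summit by coordinate the difference was -5.08 percentage points (Fisher's exact test, p = 0.220). Both kinds lay there more often than the 14.03% of genome positions. Gene bodies held 33 of the 176 first summits (18.8%) and 182 of the 769 isolated summits (23.7%), where 54.1% of genome positions fell. That difference of -4.92 percentage points (-10.9 to 2.11) did not pass the threshold (Fisher's exact test, two-sided, p = 0.195, adjusted p = 0.195), and it did with the last summit (-8.89, p = 0.0114).

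**Figure D2:**
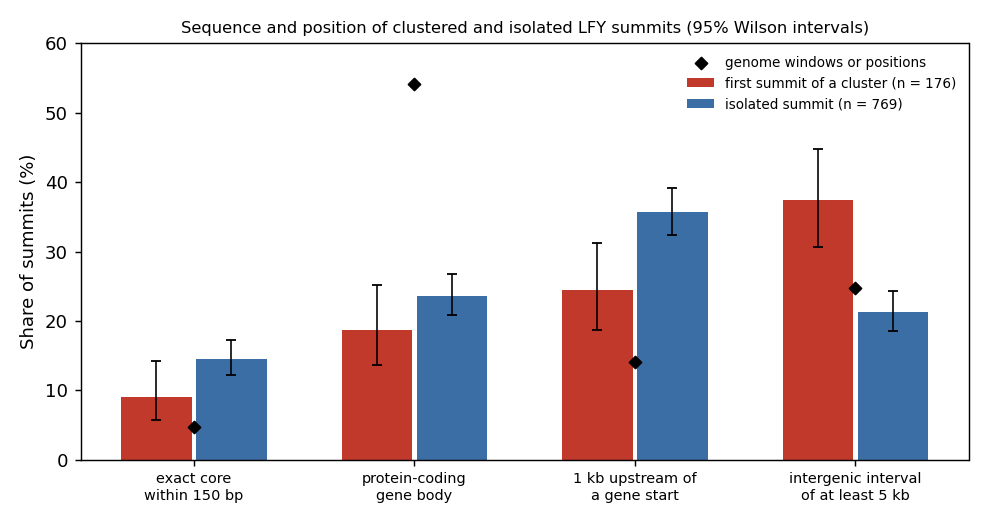
Bars give the share of summits in percent (y axis) for 4 properties (x axis), for the first summit of each of the 176 clusters and for the 769 isolated summits, with 95% Wilson intervals. Diamonds give genome windows of 301 bp for the core and genome positions for the others, and the bars differ most at intergenic intervals of at least 5 kb, with 37.5% and 21.3%.

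Over all 408 clustered summits, 105 lay up to 1 kb upstream of a gene, 134 lay 1 to 3 kb upstream and 106 lay in neither a gene nor 3 kb upstream of one. In exons outside the coding sequence lay 42, in coding sequence 13 and in introns 8. The intergenic intervals around clustered summits outside genes had a median length of 4637 bp, against 3339 bp around isolated summits.

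The exact core was rare among clustered summits. It was within 150 bp of 42 of the 408 (10.3%, 7.71 to 13.6), against 112 of the 769 isolated summits (14.6%, 12.2 to 17.2) and 4.75% of genome windows of equal width. With 1 summit per cluster the shares were 9.09% (16 of 176) and 14.6%, a difference of -5.47 percentage points (-9.81 to 0.188) that did not pass the threshold (Fisher's exact test, two-sided, p = 0.0663, adjusted p = 0.133). With up to 1 mismatch, 130 of the 176 first summits and 569 of the 769 isolated summits had a match, a difference of -0.129 percentage points. Against the window 1000 bp to the left of the same summits, which had a core in 8 of 176 (4.55%), a core was at the summit alone in 16 clusters and in the left window alone in 8 (two-sided exact binomial test with p = 0.152 and an adjusted p = 0.182). With up to 1 mismatch allowed, 130 of the first summits had a match against 86 of the left windows, a difference of 25 percentage points (exact binomial test, two-sided, p = 3.80e-06), and the last summits with their right windows differed by 9.09 percentage points in exact cores (p = 0.00154).

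No summit had an exact core in 135 clusters, 1 summit had one in 40 clusters, and 2 summits had one only in the cluster at PDE135 and AT2G26520. By size, a core was at 32 of the 274 summits in clusters of 2, 5 of the 78 in clusters of 3 and 4 of the 40 in clusters of 4. In the 2 clusters of 5 it was at 0 of 10 summits, and in the HB40 cluster at 1 of 6. Where a core was present, it lay a median of 27 bp from a clustered summit and 20.5 bp from an isolated one. Within 25 bp lay 20 of 42 clustered and 66 of 112 isolated cores. The middle base of the core was A or T, which are the same site read from either strand, in 32 of the 42 clustered cores (76.2%) and in 79 of the 112 isolated cores (70.5%).

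Within clusters, the strongest and the weakest summit were compared. Ordered by q-value, 23 of the 176 strongest summits (13.1%, 8.87 to 18.8) had a core and 13 of the 176 weakest (7.39%). No cluster had a core at both, and the 5.68 percentage points between them missed the threshold (two-sided exact binomial test with p = 0.132 and an adjusted p = 0.182). The difference passed the threshold with chaining distances of 1000 bp (11.2 percentage points, exact binomial test, p = 0.0225) and 5000 bp (7.80, p = 0.0113). When −log10 q was required to reach 20, 10 of the 89 strongest and 9 of the 89 weakest summits had a core. That difference of 1.12 percentage points did not pass, nor did 7.30 in clusters of 2 only (exact binomial test, p = 0.110).

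Other short words were counted in the same windows as a description, each on both strands. CACGTG, the G-box recognised by many bHLH and bZIP factors, was at 38 clustered summits (9.31%), 13.4% of isolated summits and 3.32% of genome windows. TTGAC, the centre of the W-box recognised by WRKY factors, was at 62.7% of clustered summits, 63.8% of isolated summits and 47.1% of genome windows. GAGAGAGA, a repeat of the kind that BPC factors recognise, was at 6.62% of clustered summits, 7.02% of isolated summits and 4.82% of genome windows. None of these words holds the core, overlaps between words were not removed, and a match is not a site.

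The values of the peaks are described without a test, since they come from the same comparison as the summits. Fold is the pileup of pooled dex reads over the background of pooled mock reads, each plus 1. Clustered summits had a median fold of 4.25 (quartiles 3.50 and 5.80, range 2.59 to 18.6) and isolated summits a median of 3.95 (3.33 and 5.09, range 2.23 to 16.01). The strongest summit of each cluster, by q-value, had a median fold of 5.49, and the 232 other clustered summits had a median of 3.73. Leaving out the strongest summit of every cluster lowers this median by construction, and no such summit was left out of the isolated ones. Clustered summits made up 7 of the 10 and 56 of the 100 summits of highest fold, and 18 of the 100 of lowest fold. Over all 1177 nuclear summits the share was 34.7%. Their intervals had a median width of 413.5 bp, against 330 bp for isolated summits. The reads behind each summit, recovered from the fold and the p-value, had a median of 115 dex reads at clustered and 112 at isolated summits, with mock backgrounds of 19 and 20 reads.

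Larger clusters had a higher strongest summit, with a median fold of 5.37 in clusters of 2, 6.74 in clusters of 3 and 7.21 in the 13 clusters of 4 to 6. A cluster with more summits has more values from which the highest is taken, and the part of this in the order was not tested. Within clusters the strongest summit had a median of 1.52 times the fold of the weakest, with a range from 0.757 to 6.08. A ratio over 2 was found in 43 clusters (24.4%). In 79 clusters the counting intervals of the highest and the lowest fold overlapped. Overlap of separate intervals is not a test of a difference, and the difference between these folds was not tested.

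**Figure D3:**
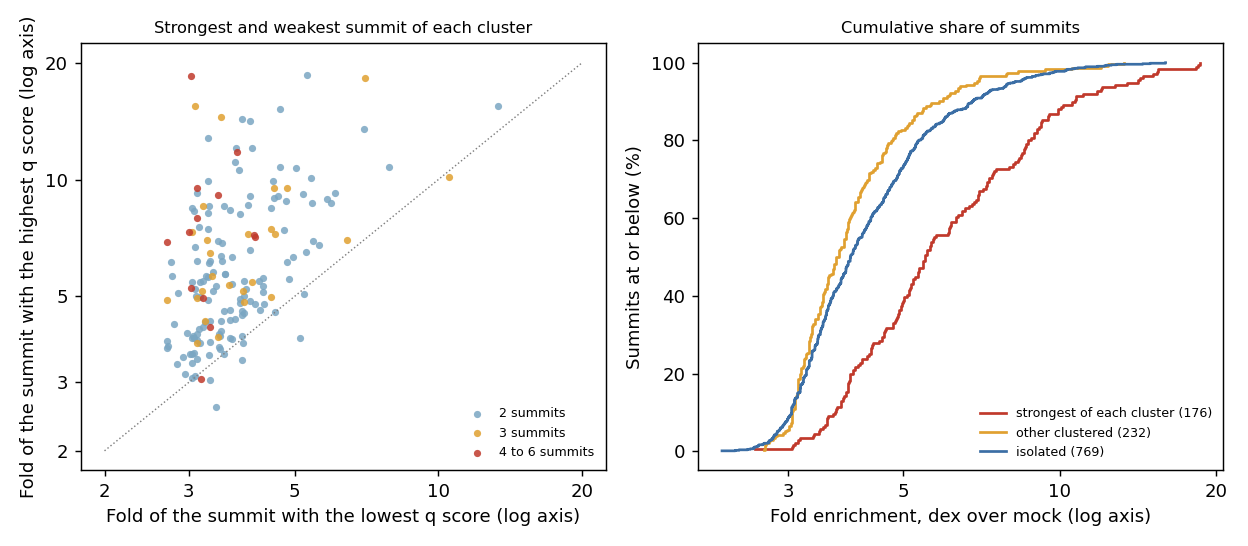
The left panel sets the fold of the summit with the highest q score of each cluster (y axis, log) against that of the summit with the lowest (x axis, log), coloured by the number of summits, with equal folds on the dotted line. The right panel gives the cumulative share of summits in percent (y axis) by fold (x axis, log) for the strongest summits of the 176 clusters (median 5.49), the 232 other clustered summits (median 3.73) and the 769 isolated summits (median 3.95).

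The cluster with the most summits stretched over 5088 bp from an intron of HB40 into its upstream region (AT4G36740, chromosome 4, 17314453 to 17316441, minus strand). HB40 encodes a homeodomain-leucine zipper factor that acts in axillary buds. From inside the gene outwards, the 6 folds were 4.16, 4.62, 7.98, 3.67, 3.22 and 3.13. The third summit, 1130 bp upstream, stood out, with a counting interval (6.90 to 9.19) above those of the other 5, and the printed HB40 core lay 14 bp from the second summit, 394 bp upstream. The last 2 summits lay 3959 and 4592 bp upstream, in the same interval of 8077 bp, and beyond the distance for an assignment.

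The next clusters described are those of 4 or 5 summits beside WRKY, MYB and bHLH genes. In front of WRKY48 (AT5G49520, chromosome 5, 20090648 to 20093346) 5 summits spanned 5064 bp, with folds of 3.04, 18.5, 3.58, 4.54 and 8.32 from the PFD3 side to the WRKY48 side. PFD3 encodes a subunit of the chaperone prefoldin. The summit of fold 18.5 rested on 679 dex reads, its neighbours on either side on 72 and 85, and the last of the 5 lay 1213 bp upstream of WRKY48. The strongest peak had an interval of 1448 bp, and its weak neighbours stood 1543 and 633 bp from its summit.

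WRKY23, an auxin-responsive gene of root development (AT2G47260, chromosome 2, 19404802 to 19407098, minus strand), had 4 summits with folds of 4.18, 4.41, 3.13 and 9.49, from an exon outside the coding sequence to 2902 bp upstream. The strongest was the farthest from the gene and lay 1430 bp beyond the end of UPB1, a bHLH factor gene of the root. A further summit of fold 6.34 lay 3012 bp from the first and was left out by the rule. At MYB94, a regulator of cuticular wax synthesis (AT3G47600, chromosome 3, 17539289 to 17541307, minus strand), the 4 folds of 3.91, 3.75, 4.16 and 3.33 had overlapping counting intervals, and all 4 summits lay between 1408 and 3962 bp upstream.

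Between AT4G36925 and SPT lay 4 summits with folds of 4.95, 3.96, 4.02 and 3.21. SPT (SPATULA) encodes a bHLH factor of carpel development (AT4G36930, chromosome 4, 17414083 to 17416386). The weakest of these summits was the closest to SPT, 2860 bp upstream, and had an exact core 27 bp away. On chromosome 2, 4 summits with folds of 6.28, 11.8, 3.79 and 3.85 surrounded ORS1, a gene of organ growth, and BHLH100, a gene of the iron deficiency response. Both genes lay whole inside the span of 5184 bp. The summit of fold 11.8 lay 1029 bp upstream of ORS1, 1311 bp beyond the end of BHLH100 and 811 bp beyond the end of AT2G41231.

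Among the clusters at hormone genes, those of GH3.17, GH3.3 and IAA13 had 4 summits each. GH3.17 and GH3.3 encode enzymes that conjugate auxin to amino acids. In front of GH3.17 (AT1G28130, chromosome 1, 9825169 to 9828118) the widest cluster, 5253 bp, had folds of 7.21, 4.12, 6.61 and 6.99, and its last summit lay 109 bp upstream of the gene. The second summit was the low one of the 4, with a counting interval of 3.35 to 5.01, below those of the other 3. A core lay 45 bp from the third. Between GH3.3 and CYP96A1 the folds were 3.04, 4.66, 3.13 and 5.26, with only the first summit, 2303 bp upstream, assigned to GH3.3.

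IAA13 (AT2G33310, chromosome 2, 14113025 to 14116089, minus strand), which encodes an Aux/IAA repressor of auxin response, was assigned all 4 summits of its cluster. Their folds were 2.71, 4.21, 3.58 and 6.91 from the gene outwards. As at WRKY23, the summit farthest from the gene was the strongest, 2945 bp upstream and 273 bp from the end of AT2G33320. From an exon of AT1G25390, a protein kinase gene, to an exon of AT1G25400 the 4 folds were 3.16, 3.59, 3.06 and 3.18, and IPT6, a cytokinin synthesis gene, lay 1685 bp beyond the last summit.

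GA2OX4 encodes a gibberellin 2-oxidase, an enzyme that inactivates gibberellins (AT1G47990, chromosome 1, 17698598 to 17701041). It had a pair of strong summits, with a fold of 13.3 on 472 dex reads 2166 bp upstream and a fold of 15.5 on 489 dex reads 758 bp upstream. Their counting intervals (12.1 to 14.6 and 14.1 to 16.9) overlapped. The pair with folds of 3.29 and 12.8 on the same chromosome lay between nMAT1, a gene for an intron maturase, and GA2OX2, but its nearer summit was 15598 bp from GA2OX2 and no gene was assigned.

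Among large clusters at other genes, 5 summits ran from an exon at the end of CENP-C, a kinetochore protein gene, to 1462 bp in front of AT1G15670, annotated as a kelch repeat gene. Their folds were 6.15, 5.64, 5.20, 3.00 and 7.31. At PDE135, AT2G26515 and AT2G26520 the 4 folds were 4.60, 6.36, 4.12 and 7.11, and the printed cores lay 49 bp from the first and 77 bp from the second summit. Around AT1G68360, annotated as a C2H2 zinc finger gene (chromosome 1, 25621533 to 25622593, minus strand), the 4 folds were 3.46, 3.75, 6.36 and 9.12, and the strongest lay 8 bp upstream of the gene. The first 3 of these lay past the end of the gene.

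**Figure D4:**
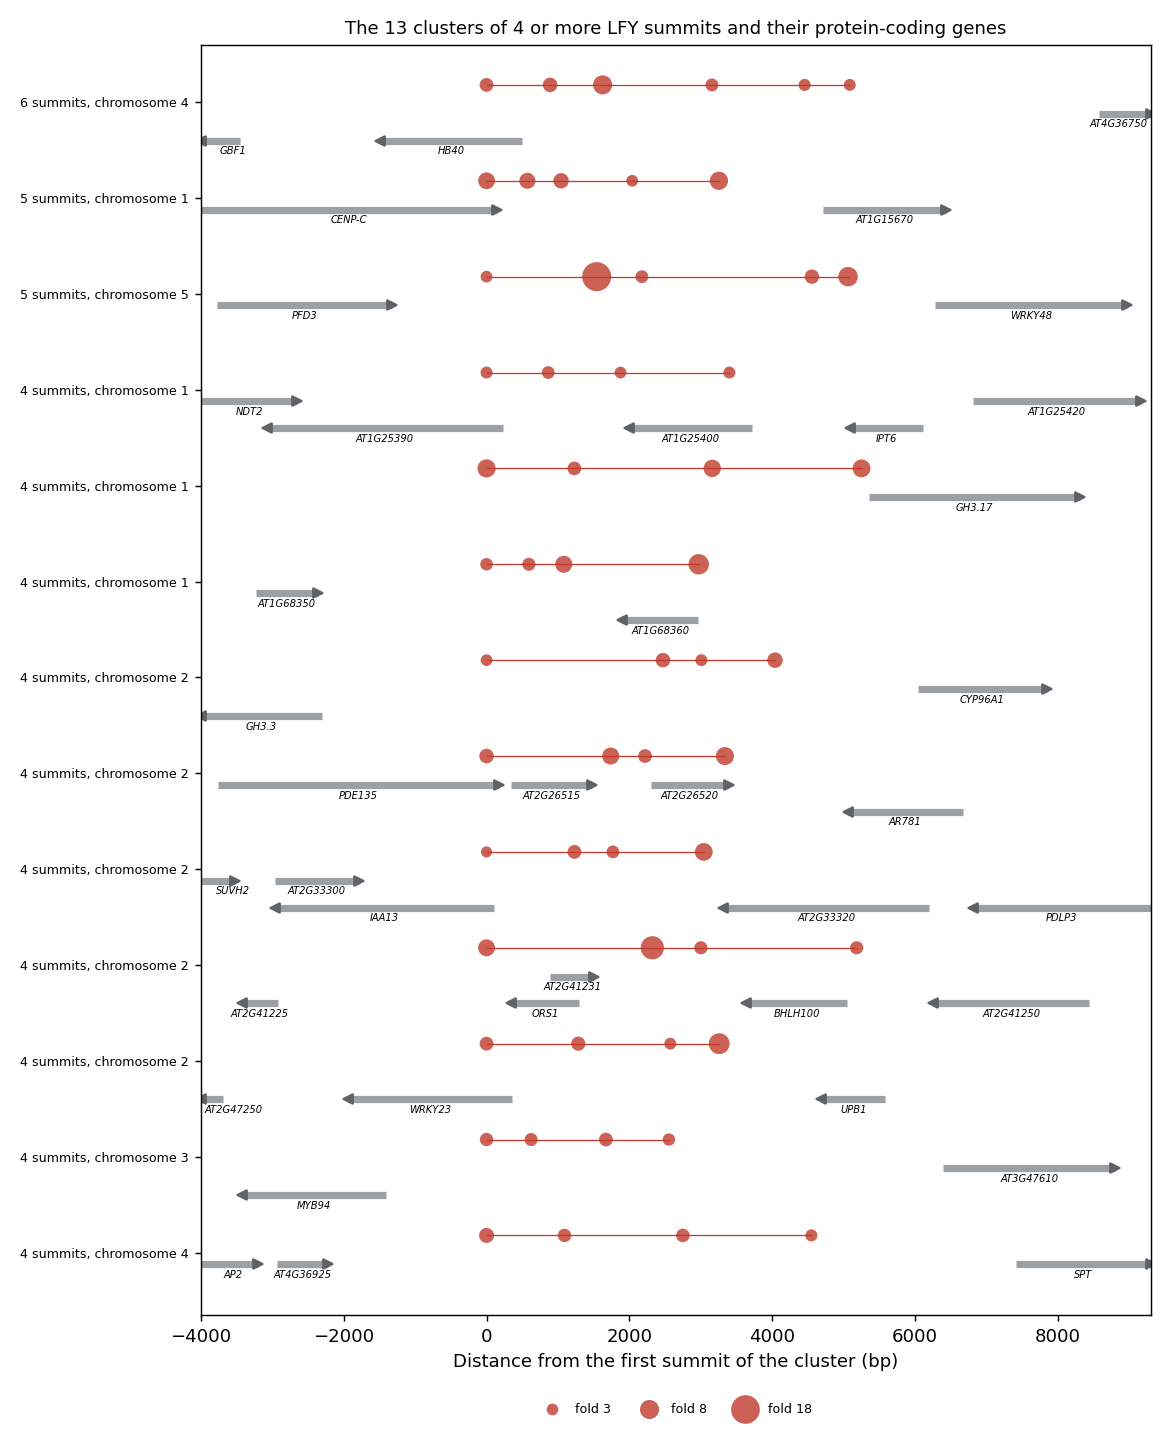
Each row is 1 of the 13 clusters with 4 to 6 summits, drawn by distance from its first summit in bp (x axis). Red circles are summits with an area proportional to fold, and grey bars are protein-coding genes with arrows at their 3′ ends, plus strand above minus strand. The largest circle, at fold 18.5, lies in the PFD3 to WRKY48 interval, and 6 summits lie at HB40.

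The 10 clusters of 2 or 3 summits with the highest folds were chosen by their strongest summit, which favours a wide gap to the others. Their weakest summits had folds from 3.09 to 13.3. At AR781, annotated as a protein with a domain of unknown function (AT2G26530, chromosome 2, 11282663 to 11284272, minus strand), the fold was 18.6 on 566 dex reads 627 bp upstream of the gene and 5.31 on 132 dex reads in an exon. The exon summit lay 3263 bp from the last summit of the cluster at AT2G26520, so the rule kept these neighbours apart. The interval between AT1G68360 and ARG1, a DnaJ protein gene of gravity response, held a cluster of 3 summits. Going away from AT1G68360, their folds were 18.3, 12.4 and 7.02 on 672, 297 and 177 dex reads. Their counting intervals did not overlap, and none of the 3 was within 3 kb upstream of either gene. The summit of fold 9.12 that lay 8 bp upstream of AT1G68360, in the cluster of 4 around that gene, was in the same interval. The fall with distance thus held within the cluster of 3 and not over the whole interval.

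At AT4G29710 to PAO5, a polyamine oxidase gene, the folds were 3.09, 15.4 and 9.35. At WRKY6 to AT1G62305 they were 3.51, 14.5 and 6.84, with the middle summit strongest in both clusters. Between BCA6 and RLP9, a carbonic anhydrase and a receptor-like protein gene, a summit of fold 15.2 lay 27 bp upstream of BCA6 and 519 bp upstream of RLP9, and the other, of fold 4.66, lay in an intron of RLP9. The folds were 14.3 and 3.87 between the divergent genes AT5G02530 and AT5G02540, 4.04 and 14.2 at AT3G63240, and 6.99 and 13.5 upstream of LOJ, a pentatricopeptide repeat protein gene. At AT3G63240 the strong summit was in a non-coding part of an exon and had a core 106 bp away.

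Of the 33 genes in the list of floral and flowering-time regulators, AP1 and TEM1 had clustered summits, 3 (MYB17, FD and MYB37) had isolated summits only and 28 had none. The list held 7 summits, and 4 of them (57.1%) were clustered, 2 at AP1 and 2 at TEM1. Among all 945 summits assigned to a protein-coding gene, 302 (31.96%) were clustered. AP1, a MADS-box gene of floral meristem identity (AT1G69120, chromosome 1, 25982294 to 25986349, minus strand), had a summit of fold 5.13 on 127 dex reads in an intron and a summit of fold 3.91 on 460 dex reads 164 bp upstream. The order by reads was thus opposite to that by fold, as the mock background was 18.7 reads at the intron and 92 reads at the upstream summit. The printed AP1 core lay 5 bp from the upstream summit. TEM1, a repressor of flowering (AT1G25560, chromosome 1, 8981556 to 8983314, minus strand), had folds of 8.93 and 5.86 at 713 and 1736 bp upstream, with counting intervals that did not overlap, and no exact core.

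The tightest pair, 349 bp apart, lay between PI, a MADS-box gene of petal and stamen identity, and DIN10, a raffinose synthase gene. Its folds of 4.55 and 4.56 did not differ beyond their counting error. Both summits lay past the end of PI, at 823 and 1172 bp, and upstream of DIN10, at 1226 and 877 bp, so DIN10 was the assigned gene. The widest pair, at 2977 bp, had folds of 5.23 and 5.08 and enclosed AT3G59210, an F-box protein gene.

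Gene families were counted from lists of symbols in the annotation, which are not complete and were chosen with earlier results known. Of the 94 auxin genes on the list, 6 had a clustered summit and 8 had isolated summits only. The listed auxin genes held 20 summits, and 12 of them (60%) were clustered, 4 of these at IAA13. Among all 945 summits assigned to a protein-coding gene, 302 (31.96%) were clustered. Beside GH3.17, GH3.3 and IAA13, the listed auxin genes with a clustered summit were ARF19, PIN4 and IAA9. Genes of the same families that are annotated under other symbols were not counted, so further auxin genes can have clustered summits. ARF19, an auxin response factor, had folds of 5.52 and 9.51 at 295 and 1470 bp upstream. PIN4, an auxin efflux carrier, had folds of 3.46 and 6.95 in exons outside the coding sequence, and IAA9 had a fold of 4.58. The auxin receptor gene TIR1 had a fold of 12.3 at an isolated summit.

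Of the homeodomain genes, 3 of 71 had clustered summits, and 8 of the 10 summits of the family were clustered, 4 of them at HB40. HB53 had folds of 9.94 and 4.50 at 825 and 238 bp upstream, and HB17 had 4.22 and 5.49 at 530 and 2501 bp upstream, with the printed HB17 core 7 bp from the first. In the AP2/ERF list 4 of 64 genes had clustered summits, TEM1, ERF15, AIL6 and ERF5, and 6 of 10 summits were clustered. AIL6, a PLETHORA-type factor gene, had folds of 6.95 and 5.46 at 2205 and 153 bp upstream. Over all 27444 protein-coding genes, 237 (0.864%) had a clustered summit, and 302 of the 945 assigned summits (31.96%) were clustered. The numbers in the lists are small, and the lists were not tested.

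The other lists held between 2 and 16 summits. Of the WRKY genes, 2 of 67 had clustered summits, holding 6 of the family's 15 summits, and of the MYB genes 3 of 115 (MYB14, MYB15 and MYB94), holding 5 of 16. For NAC genes it was 1 of 85 genes (NAC071) and 2 of 8 summits, for gibberellin genes 1 of 22 (GA2OX4) and 2 of 5, and for cytokinin genes 1 of 60 (ARR7, a type-A response regulator) and 2 of 6. GRF5 was the only clustered gene of 21 with GRF symbols, which mix growth-regulating factors and 14-3-3 proteins, and 2 of the 3 summits of this list were clustered (66.7%). Its folds were 2.71 and 3.68 at 1805 and 849 bp upstream, and the second rested on 424 dex reads over a mock background of 90. Of 13 genes with bHLH symbols, BHLH100 and BHLH32 had clustered summits, and both summits of this list were clustered. Over all 27444 protein-coding genes, 237 (0.864%) had a clustered summit and 948 (3.45%) an isolated one only. Of the 945 summits assigned to any of them, 302 (31.96%) were clustered.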

How the data were processed

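The 9 samples were 3 mock and 3 dex samples of ChIP-seq with anti-LFY antibodies and 3 inputs without immunoprecipitation. Per the submitters' processing notes, the tools included Trimmomatic 0.36, FastQC 0.11.5, Bowtie2 2.3.1, SAMtools 1.7, Picard 2.9.4 and MACS2 2.1.1.20160309, with the TAIR10 build. The authors pooled dex libraries over pooled mock libraries in MACS2, without the inputs, with a fixed extension of 138 bp and automatic removal of duplicates, and kept summits with a −log10 q-value of at least 10. The deposited fold enrichment is a ratio of pileup plus 1 over background plus 1. The deposited −log10 p-values and −log10 q-values are those of the caller, and the deposited score was not used. Because the authors pooled libraries, 1 summit stands on all 3 dex samples together, and a peak carried by a single library could not be told apart.

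Summits on the 5 nuclear chromosomes were chained at 3000 bp with Python 3.11.15, NumPy 2.4.6 and pandas 2.3.3. Members, gene lists and tests were chosen with earlier results of these data known. Reads were recovered by solving fold and p-value together, where 1 dex read counted as 0.788 mock reads and the background was at least 17.97 reads. All 1177 summits could be solved, 3 of them with 2 solutions. Between 2 solutions the kind of background decided first, and closeness only within a kind. The order of kinds was genome-wide floor, summit window, 1 kb and 10 kb. Counting intervals of a fold are exact Poisson intervals of the dex reads at a fixed background. Duplicates were removed by position and not by molecular identifiers. Matches to CCANTGG whose centre was up to 150 bp from a summit were taken from the RefSeq TAIR10.1 sequence as its core, and genes came from its annotation (27444 protein-coding). Shares have 95% Wilson intervals, which take no account of summits or pairs that share a cluster. Tests were Fisher's exact test and the exact binomial test on discordant pairs (SciPy 1.17.1), with Benjamini-Hochberg adjustment over 6 tests and a threshold of 0.05. Scripts were tested on simulated data.

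Named clusters were all with 4 or more summits, the 10 smaller clusters of highest fold, those with a core at 2 or more summits, those at floral genes, and the tightest and widest pair. Genes of the lists and the cores within 10 bp were named in addition, after their values had been seen. Alternatives varied the chaining distance, the q-value, the summit that stands for a cluster, the core window, the mismatch, the gene set and the interval length.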

Additional observations from a re-analysis of the deposited data

Results flagged for a closer look

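Outside the nuclear chromosomes, 4 peaks were listed on the chloroplast genome and were left out of the clusters. Their folds of 1.52, 1.57, 1.58 and 1.51 were below that of every clustered summit, the lowest of which was 2.59. They are named because they are signal outside the nuclear comparison, and their origin was not tested.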

How the results depend on the processing

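No paired analysis was possible because the libraries were pooled before peaks were called, and for the same reason no replicate could be left out. Of 56 alternatives, 34 kept the direction and the side of the threshold, or stayed within 1.5 times for a count, and 0 reversed a direction. The number of clustered summits was 165 with a chaining distance of 1000 bp, 200 when −log10 q was required to reach 20 and 33 when it was to reach 50, and the number of clusters was 80, 89 and 15. Calls under the alternatives rest on unadjusted p-values. In percentage points, the upstream difference was -10.5 at 1000 bp (Fisher's exact test, p = 0.0618) and -5.08 with the last summit, and the difference in long intervals was 5.42 at 1000 bp and 3.50 for 10 kb, so these calls were lost. Others passed the threshold only under an alternative. The core difference between first and isolated summits was -5.96 at 5000 bp and -10.01 at a −log10 q-value of 20. With all clustered summits in place of the first ones it was -4.27, which counts summits of a cluster separately. It was -2.63 with the last summit, -1.50 with the strongest and -0.129 with 1 mismatch, and none of these passed the threshold. The gene body difference was -8.89 with the last, -7.76 with the strongest and -8.23 with all summits, the latter counting summits of a cluster separately. The core difference from the flanking window was 9.09 with the last summit, 5.68 within 50 bp and 25 with 1 mismatch. The core difference between strongest and weakest was 11.2 at 1000 bp, 7.80 at 5000 bp and 11.4 with 1 mismatch. It was 1.12 at a −log10 q-value of 20 and 7.30 in clusters of 2 only, and neither passed the threshold. The cause of these changes was not tested.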
